A study of Mus musculus with 3 samples.

Results

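CD4 T cells of the mouse infrarenal aorta that carried no transcripts of regulatory T cell factors were described in 3 single-cell RNA libraries. Members were chosen by their own transcript counts, and the genes of this choice are given as a description only. Each cell had at least 200 genes, at most 10% of its unique molecular identifiers (UMIs, the molecules counted) from mitochondrial genes, at least 2 UMIs of the CD3 chain genes Cd3d, Cd3e and Cd3g together, and at least 1 UMI of Cd4. Each also had 0 UMIs of Cd8a, Cd8b1, Foxp3, Ikzf2, Trdc, Cd163l1 and Cd79a and at most 1 UMI of the 3 C1q genes together. This gate gave 362 cells, 69 in the Sham library, 63 in the library titled AAA_7 and 230 in AAA_14, of 9750 barcodes that passed the gene and mitochondrial limits and of 17389 in the files.

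All mice were wild type, and the labels give no strain, sex or age. The Sham library came from aortas given phosphate-buffered saline (PBS). The AAA_14 library came from aortas given elastase, a protease that attacks elastin in the aortic wall and is used to induce abdominal aortic aneurysm (AAA). The library titled AAA_7 is named as an aneurysm by its title but as PBS by its treatment label, so its treatment is in doubt and it is called the library titled AAA_7 throughout; the unit of the numbers 7 and 14 is not given. What the groups shared was perfusion of the vessels with PBS, digestion of the aorta with collagenases, hyaluronidase and DNase for 1 h, a mesh of 70 µm and enrichment with CD45 and viability microbeads. Cells of all aortas of a group were mixed, 50 control and 20 aneurysm aortas, with no number given for the library titled AAA_7 by itself. Each group was therefore 1 library, without replicates, and no test between groups was possible; every difference below is one between libraries, and intervals cover counting error only.

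CD4 T cells recognise peptides on MHC class II molecules and direct other immune cells through cytokines and surface ligands. Before they meet antigen they recirculate between blood and lymph nodes, guided by receptors such as those encoded by Ccr7 and S1pr1. After activation they lose this programme, gain receptors for tissue such as Cxcr6, and can become type 1 helper cells, which make interferon gamma under the factor T-bet (Tbx21), or type 17 helper cells, which make interleukin 17. T cells are a regular part of the infiltrate of aneurysmal aortas.

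Markers that the gate did not use were those of CD4 T cells. Cd28, which encodes the costimulatory receptor of T cells, had a UMI in 82.6% of the Sham cells, 79.4% of those of the library titled AAA_7 and 75.2% of the AAA_14 cells. At an equal depth of 1500 UMIs per cell the shares were 50.7%, 67.8% and 36.5%, against 2.16%, 0.714% and 0.607% of B cells, which should lack the gene. Cd40lg, the CD40 ligand by which helper T cells stimulate B cells and macrophages, was at 112, 283 and 36.4 UMIs per 1000000 UMIs of the cells summed (CPM) in the gated cells and at 0, 0.292 and 0.105 in cells without any Cd3 UMI. Trac, the constant region of the T cell receptor alpha chain, had a UMI in 87.0%, 85.7% and 92.2% of the cells. Of the 8 gamma-delta T cell genes examined, 8, 5 and 3 were at 0, and the summed level of the list was 0, 30.9 and 13.6 CPM. Trdc and Cd163l1 of this list were at 0 in every library by the rule of the gate, so their zeros add nothing. The natural killer receptor gene Ncr1 was at 0, 0 and 1.24, and Zbtb16 and Trav11, which mark natural killer T cells, were at 0 in the first pair of libraries, with 0.618 and 0 in AAA_14. The whole list of 8 natural killer T cell genes had UMIs in 2, 10 and 42 cells and summed to 13.6, 67.0 and 36.4 CPM.

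The gate was set on values of few UMIs, and many cells lay at its edge. The median Cd4 count was 1, 1 and 2 UMIs. With exactly 1 Cd4 UMI, 55 Sham cells, 39 of the library titled AAA_7 and 91 AAA_14 cells were just inside, while 124, 100 and 91 cells with no Cd4 UMI but all other criteria met were just outside. At the C1q limit, 0, 15 and 60 cells had 1 UMI and 0, 1 and 18 had 2. At the mitochondrial limit, 23, 0 and 46 cells had 9 to 10% and 6, 0 and 28 had 10 to 11%. Il2ra, another gene of regulatory T cells that the gate did not use, had a UMI in 1, 3 and 15 of the gated cells. A list of 15 regulatory-associated genes outside the gate summed to 316, 963.5 and 542 CPM. At least 2-fold above Sham were 5 of 7 measured genes in the library titled AAA_7 and 5 of 10 in AAA_14. Of all genes 29.7% were, in each comparison. With 1 UMI of Foxp3, 0, 3 and 2 cells were just outside, and with 1 UMI of Ikzf2, 3, 9 and 23. How many gated cells held these transcripts uncaptured was not tested.

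The gated cells made up 5.59% of the Sham barcodes that passed the limits (69 of 1235, exact Clopper-Pearson 95% interval 4.37 to 7.02), 1.95% in the library titled AAA_7 (63 of 3229, 1.50 to 2.49) and 4.35% in AAA_14 (230 of 5286, 3.82 to 4.94). Among cells with at least 2 Cd3 UMIs the shares were 13.0%, 11.5% and 20.5%. When the gate was applied to cells thinned to 1500 UMIs, 1.40%, 1.39% and 2.40% of the cells passed, and the order of Sham and AAA_14 turned. The share of barcodes taken out by the gene and mitochondrial limits also differed, at 67.4%, 7.64% and 47.7%.

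The gated cells differed in depth and in RNA composition between libraries. Their sums held 366884, 194084 and 1619016 UMIs, so that 3 UMIs, used here as the floor of detection, are worth 8.18, 15.5 and 1.85 CPM. The median cell had 4350, 2850 and 5869.5 UMIs, with a median of 8.40%, 1.08% and 7.85% from mitochondrial genes, and ribosomal protein genes took 41.1%, 30.2% and 30.6% of all UMIs. No barcode was gated in more than 1 library. Summed over the pairs of libraries, 27 barcodes were shared in all and 12 among those that passed the limits. In AAA_14, 3 cells held 98.3% of the stromal marker UMIs, 1 cell held 95.9% of the haemoglobin and platelet UMIs and 8 cells held 72.3% of the macrophage and monocyte UMIs. UMIs of B cell genes were spread more widely, in 47 of 69, 36 of 63 and 229 of 230 cells, with a median of 1, 1 and 5 per cell. Neutrophil genes had UMIs in 34, 40 and 212 cells and dendritic cell genes in 37, 41 and 214. The summed macrophage and monocyte level was 16.4, 613 and 1007 CPM, with 7, 1 and 0 of its 10 genes at 0, and the summed B cell level 425, 376 and 842. The part of depth, composition and RNA of other cells in the results was not tested beyond the values given beside them. Without the cells that held over 10 UMIs of any one of 6 other cell types, 66, 58 and 194 cells were left, and counts of list genes in these cells are given beside the lists described at length. For other lists in AAA_14 over Sham, the genes at least 2-fold higher in these cells were 12 of 12 for type 17, 11 of 13 for cytokines, 9 of 23 for cytokine receptors, 9 of 20 for immediate early, 4 of 15 for T cell receptor and 2 of 10 for costimulatory genes. In all gated cells, 8 of the 12 type 17 genes and 4 of 15 cytokine genes were at 0 in Sham. Such genes pass the limit of 10 UMIs per gene through AAA_14 alone, and at that limit already exceed 2-fold. Over all genes, 2188 were at least 2-fold higher and 268 lower in the reduced set of cells. Their share of the genes compared in that set is not given. In all gated cells 29.7% of genes were higher, and that share is not the background of counts in the reduced set. Removing the cells with over 10 UMIs leaves RNA spread thinly over many cells in place. A stricter filter kept cells with at most 1 UMI of each of Lyz2, S100a8, S100a9, Cd79b, Ms4a1 and Cd74. It left 61, 51 and 76 cells. Counts of list genes are not given for it, and values that moved under it are given in the section on processing.

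Levels are given in CPM over the summed gated cells of a library, in the order Sham, the library titled AAA_7, AAA_14, and differences as log2 ratios with 0.5 counts added to each sum. Of 9229 genes with at least 10 UMIs in AAA_14 and Sham together, 29.7% were higher in AAA_14 by 2-fold or more and 3.45% at least 2-fold lower. The median of all these genes was itself 0.49 above 0 on the log2 scale. For the library titled AAA_7 over Sham, 29.7% of 5284 genes were at least 2-fold higher and 6.04% lower, again with a median of 0.49. For AAA_14 over the library titled AAA_7, 13.6% of 9162 genes were higher and 11.6% lower, with a median of -0.10. Scaling with factors from the trimmed mean of M-values (TMM) changed the split of higher and lower genes from 2743 and 318 to 1843 and 770 in the first comparison, from 1568 and 319 to 803 and 760 in the second and from 1243 and 1063 to 1468 and 761 in the third. List medians are therefore read against the median of all genes, and both comparisons with Sham share the same Sham cells.

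Genes of effector and memory T cells were higher in both other libraries than in Sham. Of 15 such genes, 13 exceeded Sham 2-fold in AAA_14 and 15 in the library titled AAA_7, and none was 2-fold lower. The list median was 2.40 in AAA_14 and 2.61 in the library titled AAA_7, which is 1.91 and 2.12 above the median of all genes. Without cells with over 10 UMIs of another cell type the AAA_14 count was also 13, and in cells without Cd3 UMIs 4 of the 15 genes were 2-fold higher in AAA_14 and 8 in the library titled AAA_7. For every list, counts in cells without Cd3 UMIs compare CPM with no UMI limit and no added counts. No share of all genes is given beside them. S100a4, a calcium-binding protein of memory and motile cells (chromosome 3, 90603771 to 90606045, GRCm38), was at 19.1, 1036 and 886 CPM. Sham alone was low, with a log2 ratio of AAA_14 over Sham of 5.44 (95% interval 4.49 to 6.85), the first of the genes ranked by the nearer bound of the interval. S100a4 was also higher in cells without Cd3 UMIs, at 171, 894 and 549, and at 1500 UMIs it was found in 1.45%, 35.6% and 26.5% of the gated cells against 0.360%, 7.86% and 4.40% of B cells.

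Cd44, the hyaluronan receptor used to tell memory from naive T cells, was at 29.98, 330 and 175 CPM and had a UMI in 5.80%, 47.6% and 45.2% of the cells. The log2 ratio was 2.48 (1.68 to 3.56) for AAA_14 over Sham and 3.41 (2.52 to 4.53) for the library titled AAA_7. Il2rb, the beta chain of the receptors for interleukins 2 and 15, was at 13.6, 299 and 131. Maf, a transcription factor of activated helper cells, was at 65.4, 742 and 259, and Id2, a regulator of effector differentiation, at 81.8, 505 and 395. The cytoskeletal and membrane genes Vim, Ahnak, Lgals1 and S100a11 had ratios of AAA_14 over Sham between 1.50 and 2.78. The smallest in the list were Crip1 (0.95) and Anxa2 (0.82), both under 2-fold. The levels of Cd44 in cells without Cd3 UMIs were 219, 510 and 253.

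**Figure D1:**
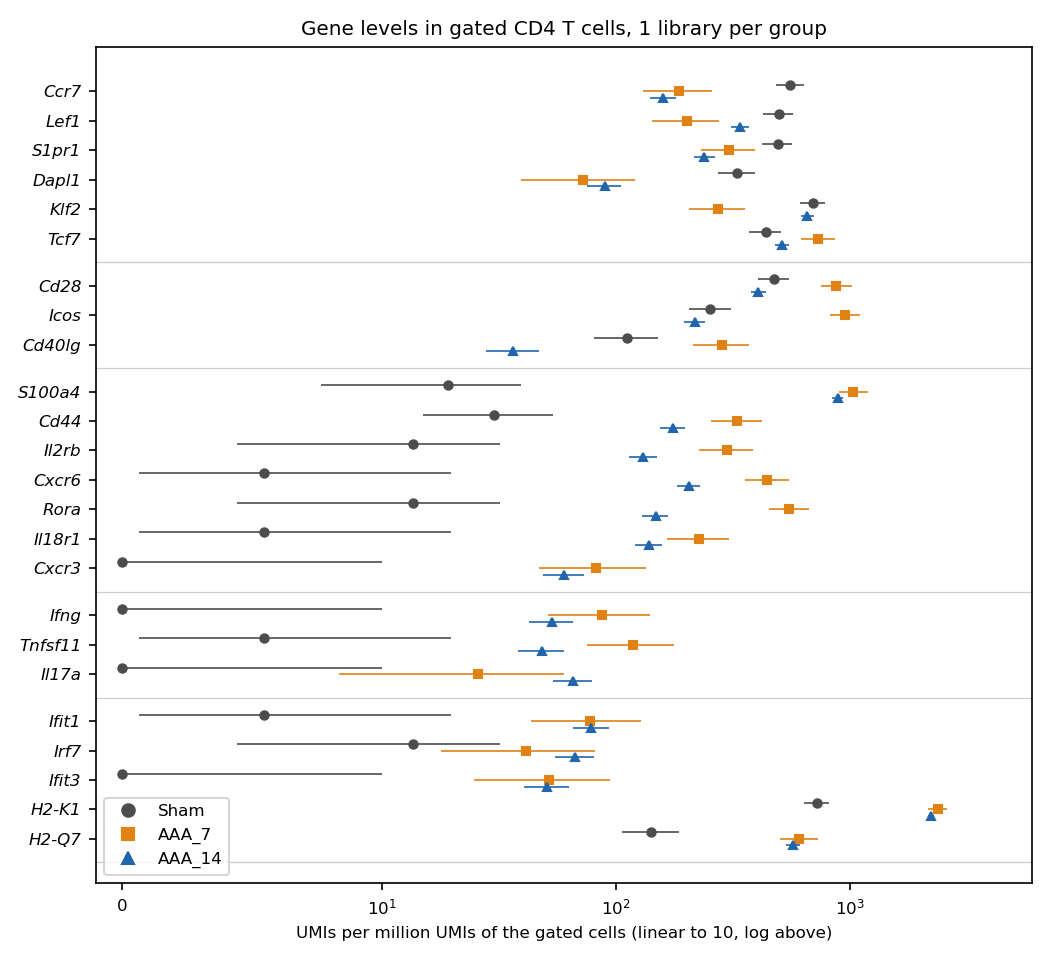
CPM of the gated cells for 24 genes, 1 point per library, on an axis that is linear to 10 and logarithmic above; bars are exact Poisson 95% intervals. S100a4, Cxcr6 and Il18r1 lie at 19.1 or less in Sham and at 138 or more in both other libraries, while Ccr7 and Dapl1 lie highest in Sham.

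Genes of naive and recirculating cells were less uniform. Of 14, 4 were at least 2-fold lower in AAA_14 than in Sham (Ccr7, Dapl1, S1pr1 and Txk) and none higher, with a list median of -0.55, or -1.04 against the median of all genes. The same count of 4 was found without cells with over 10 UMIs of another cell type, and 5 with TMM factors. With these factors 770 of 9229 genes were lower. In the library titled AAA_7 also 4 were lower (Ccr7, Dapl1, Lef1 and Klf2), with a median of -0.74. Ccr7, the receptor that guides T cells into lymph nodes (chromosome 11, 99144196 to 99155077), was at 556, 185 and 159 CPM, highest in Sham. Its log2 ratios to Sham were -1.80 (-2.07 to -1.53) in AAA_14 and -1.57 (-2.14 to -1.07) in the library titled AAA_7. Dapl1, a gene of quiescent T cells, was at 330, 72.1 and 89.6 and S1pr1, the receptor for exit from lymph nodes, at 491, 304 and 239.

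Levels of other members of the list varied between libraries. Tcf7, a factor of naive and stem-like T cells, was at 436, 732 and 513 CPM, under 2-fold apart. Klf2, the factor that maintains S1pr1, was at 695, 273 and 658, low in the library titled AAA_7 only, and it was among the 6 leading genes higher in AAA_14 than in that library (1.26, 0.87 to 1.70). Lef1 was at 496, 201 and 339. In cells without Cd3 UMIs, 8 of the 14 genes were at least 2-fold lower than in Sham in each of the other libraries, among them Ccr7 (371, 143 and 99.4). The mix of those cells differed. B cells were 278 of 646 in Sham, 340 of 2547 in the library titled AAA_7 and 1335 of 3946 in AAA_14. The part of that mix in these counts was not tested.

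Costimulation set the library titled AAA_7 apart from both others. Icos, the inducible costimulator (chromosome 1, 60977927 to 61000320), was at 253, 953 and 217 CPM. The log2 ratio of AAA_14 over the library titled AAA_7 was -2.14 (-2.40 to -1.87), while that of AAA_14 over Sham was -0.23 with an interval that includes 0. Cd40lg (chromosome X, 57212143 to 57224042), with the levels given above, led the genes ranked lower in AAA_14 than in that library, at -2.96 (-3.51 to -2.40), and it was also lower in AAA_14 than in Sham (-1.62, -2.22 to -1.01). Slamf1, a signalling receptor of activated lymphocytes, was at 19.1, 222 and 57.4, but at 1500 UMIs its AAA_14 over Sham ratio was -0.26. Tnfrsf4, which encodes OX40, was at 21.8, 82.4 and 34.0. Cd226, an adhesion receptor of effector cells, was at 16.4, 134 and 97.0, low in Sham only. Of the 10 costimulatory genes, 5 of 9 with enough UMIs were at least 2-fold higher in the library titled AAA_7 than in Sham and 2 of 10 in AAA_14, where 29.7% of all genes were higher in each comparison. Cd2 was at 204, 232 and 212, with intervals of all 3 ratios that include 0.

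Immediate early genes, which respond within minutes to receptor signals and also to tissue digestion, were also higher in the library titled AAA_7. Of 19 with enough UMIs, 15 were at least 2-fold higher in the library titled AAA_7 than in Sham, against 10 of 21 in AAA_14, and 9 of 21 were 2-fold lower in AAA_14 than in the library titled AAA_7. Nr4a1, which encodes Nur77 and is induced by the T cell receptor, was at 144, 598 and 172 CPM. Nr4a3 was at 106, 376 and 45.1, Junb at 668, 4117 and 1435, and Nfkbia, the inhibitor of NF-κB, at 243, 1077 and 426. All 4 were highest in the library titled AAA_7. Among the ranked genes, Pim1, a kinase of cytokine signalling (305, 1298 and 324), Dusp5, a phosphatase of the ERK pathway (123, 407 and 80.3), and Tnfrsf1b, the second receptor for tumour necrosis factor (51.8, 237 and 42.0), were likewise highest there. In cells without Cd3 UMIs Pim1 was at 590, 1718 and 646, Dusp5 at 122, 236 and 63.7 and Tnfrsf1b at 49.4, 380 and 88.3. These levels too were highest in the library titled AAA_7. Of heat shock genes in the gated CD4 cells, 0 of 10 differed 2-fold between AAA_14 and Sham and 1 of 10 between the library titled AAA_7 and Sham. Other T cells of the libraries also had higher immediate early genes in the library titled AAA_7. At least 2-fold above Sham were 13 of 21 in CD8 T cells and 12 of 19 in Foxp3 T cells. For AAA_14 over the library titled AAA_7, 11 of 21 were lower in CD8 T cells. In Foxp3 T cells 4 of 19 were lower and 4 higher.

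Cxcr6, a gene of T cells in tissue, was nearly absent from the Sham cells. Cxcr6, the receptor for the membrane-bound chemokine CXCL16 (chromosome 9, 123806475 to 123811760), had 2 UMIs in 1 Sham cell, and levels of 5.45, 443 and 204 CPM. It was found in 41.3% of the cells of the library titled AAA_7 and 24.3% of AAA_14 cells, against 1.45% of Sham cells; at 1500 UMIs the shares were 0%, 37.3% and 13.0% in Sham, the library titled AAA_7 and AAA_14, with 0%, 0.714% and 0.0758% of B cells. The log2 ratio to Sham was 4.91 (3.36 to 8.28) in AAA_14 and 6.03 (4.45 to 9.41) in the library titled AAA_7, and that of AAA_14 over the library titled AAA_7 was -1.12 (-1.46 to -0.76). In cells without Cd3 UMIs Cxcr6 was at 6.50, 6.12 and 6.03, without that difference. Bhlhe40, a factor of cytokine-producing and resident T cells, was at 32.7, 469 and 146, and Rgs1, a brake on chemokine receptor signals, at 128, 629 and 311.

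The tissue retention genes were mixed. Of 12 with enough UMIs, 7 were at least 2-fold higher in AAA_14 than in Sham, with or without the cells with over 10 UMIs of another cell type. With the 1 gene at 0 in Sham set to its bound, 6 were. The list median was 1.29, but 0.01 over the 9 genes still measured when cells were thinned to 1500 UMIs, and the intervals of 5 genes lay above 0 and of 2 below. Cd69 was at 245, 428 and 213 CPM and Itgae, the integrin of epithelial residency, had 0, 3 and 4 UMIs. Between AAA_14 and the library titled AAA_7, 9 of 12 genes were at least 2-fold lower in AAA_14. Ccr2, the receptor for monocyte-attracting chemokines that effector T cells also carry, was at 5.45, 263 and 101, and at 122, 282 and 283 in cells without Cd3 UMIs. Itgb7, an integrin chain of gut-homing and effector T cells, was at 65.4, 283 and 273. Gpr183, a receptor for oxysterols that positions lymphocytes, was at 384, 263 and 99.4, lowest in AAA_14, and at 354, 65.7 and 50.3 in cells without Cd3 UMIs. Ccr4, a receptor of skin-homing and type 2 cells, had 0 UMIs in Sham and was at 30.9 and 19.1 in the others.

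Of 12 type 1 helper genes, 5 had 0 UMIs in Sham. Ifng, which encodes interferon gamma (chromosome 10, 118441046 to 118445892), had 0 UMIs in the 69 Sham cells, 17 in 8 of 63 cells of the library titled AAA_7 and 86 in 24 of 230 AAA_14 cells. Against the floor of 3 UMIs in the Sham sum, its level was at least 6.50-fold higher in AAA_14 and at least 10.7-fold higher in the library titled AAA_7. With 0 of 69 cells positive, the floor of 3 counts allows a share of up to 4.35% of cells with an Ifng UMI. At 1500 UMIs the shares were 0%, 6.78% and 4.78%, with 0%, 0.357% and 0.303% of B cells. Other Sham cells did hold the transcript, at 55.9 CPM in cells without Cd3 UMIs. Cxcr3, a receptor for interferon-induced chemokines that marks type 1 cells, also had 0 UMIs in Sham and was at 82.4 and 59.9 CPM in the other libraries, at least 10.1-fold and at least 7.33-fold higher. Tbx21 was at 0, 51.5 and 14.2.

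Il18r1, a chain of the interleukin 18 receptor, was at 5.45, 227 and 138 CPM, with a log2 ratio of AAA_14 over Sham of 4.35 (2.80 to 7.72). It had a UMI in 2.90%, 34.9% and 34.3% of the cells. Stat4, the factor downstream of interleukin 12, was at 40.9, 77.3 and 50.6, with ratios to Sham whose intervals include 0. Of 11 type 1 genes, 10 exceeded Sham 2-fold in AAA_14, and 9 of 10 in the library titled AAA_7. The medians were 3.41 and 4.62, and 2.61 and 3.11 with the genes at 0 in Sham set to their bound. Such genes were 4 of the 11 and 3 of the 10, and they could only come out higher. With their bounds, 9 genes exceeded Sham 2-fold in each library. Without cells with over 10 UMIs of another cell type the AAA_14 count was again 10 of 11. Tnf, a proinflammatory cytokine, was found in 1, 14 and 25 cells. At 1500 UMIs Tnf was in 11.9% and 3.48% of the gated cells of the library titled AAA_7 and AAA_14, near the 8.57% and 3.11% of B cells.

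Of 13 type 17 genes, 9 had 0 UMIs in Sham, and the others were lower there than in AAA_14. Il17a (chromosome 1, 20730905 to 20734496) had 0 UMIs in Sham, 5 in 1 cell of the library titled AAA_7 and 106 in 9 AAA_14 cells, where 1 cell held 32.1% of them. Its level in AAA_14 was at least 8.01-fold above the Sham floor. Il17a, Il17f or Il22 was found in 1 of 69, 3 of 63 and 15 of 230 cells. Ccr6, the chemokine receptor of type 17 cells, was at 0, 20.6 and 22.9 CPM. At 1500 UMIs Ccr6 was in 0%, 1.69% and 2.17% of the gated cells, below the 3.96%, 11.8% and 8.64% of B cells, which also express it. Rora, a related nuclear receptor, was at 13.6, 551 and 148, highest in the library titled AAA_7. Of 12 type 17 genes, 12 exceeded Sham 2-fold in AAA_14, 11 with the 8 genes at 0 in Sham set to their bound, which took the median from 3.83 to 1.80. In the library titled AAA_7 only 4 of the 13 genes had enough UMIs, and all 4 were higher than in Sham. Of these, 2 were at 0 in Sham. They passed the UMI limit through the library titled AAA_7 alone and could only come out higher.

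Tmem176a and Tmem176b, overlapping genes on opposite strands of chromosome 6 for membrane proteins that type 17 cells and myeloid cells express, ranked high for AAA_14 over Sham, at least 13.9-fold and at least 15.3-fold higher. Both had 0 UMIs in Sham, with Tmem176b at 129 and 125 CPM in the other libraries. Cells without Cd3 UMIs held Tmem176b at 69.3, 322 and 369, and at 1500 UMIs it was in 6.07% and 4.62% of B cells of the library titled AAA_7 and AAA_14, against 15.3% and 10.4% of gated cells.

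Most AAA_14 cells with these cytokine transcripts also held Cxcr6. Of 24 cells with Ifng, 18 also held Cxcr6, and of 15 with Il17a, Il17f or Il22, 11 did. Ifng and an interleukin 17 or 22 transcript were together in 2 cells. In the library titled AAA_7, 5 of 8 Ifng cells held Cxcr6. Tnfsf11, which encodes the ligand RANKL, was in 2, 14 and 32 cells and absent from B cells of both Sham and the library titled AAA_7 at 1500 UMIs.

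Other ligands of the tumour necrosis factor family and receptors for cytokines differed in part. Tnfsf8, which encodes the CD30 ligand, was at 19.1, 129 and 88.3 CPM and Ltb, which encodes lymphotoxin beta and shapes lymphoid tissue, at 245, 598 and 537. Both were lowest in Sham. Of 15 cytokine genes with enough UMIs, 13 exceeded Sham 2-fold in AAA_14, or 12 with the 4 at 0 in Sham set to their bound. Il6 was among the 13, with 106 UMIs, of which 1 cell held 98.1%. Among cytokine receptors 9 of 23 were higher, near the 29.7% of all genes. Ifngr1, the binding chain of the interferon gamma receptor, was at 106, 541 and 190, and Il4ra at 27.3, 87.6 and 82.8. Il7r, the receptor for the survival factor interleukin 7, was at 308, 448 and 246, under 2-fold apart, and Il2rg, the shared gamma chain, at 215, 268 and 249.

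Transcripts of type 2 helper cells were nearly absent. Il5 and Il13 had 0 UMIs in all 3 libraries, and Il4 0, 1 and 3. With none found, the floor of 3 counts allows shares of up to 4.35%, 4.76% and 1.30% of cells with a UMI. Gata3, the factor of type 2 cells that all T cells also carry, was at 62.7, 108 and 66.1 CPM. Il10 had 0, 1 and 3 UMIs, Csf2 0, 0 and 6 and Il21 0, 1 and 12. Cxcr5, which marks follicular helper cells, had 3, 0 and 11 UMIs.

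**Figure D2:**
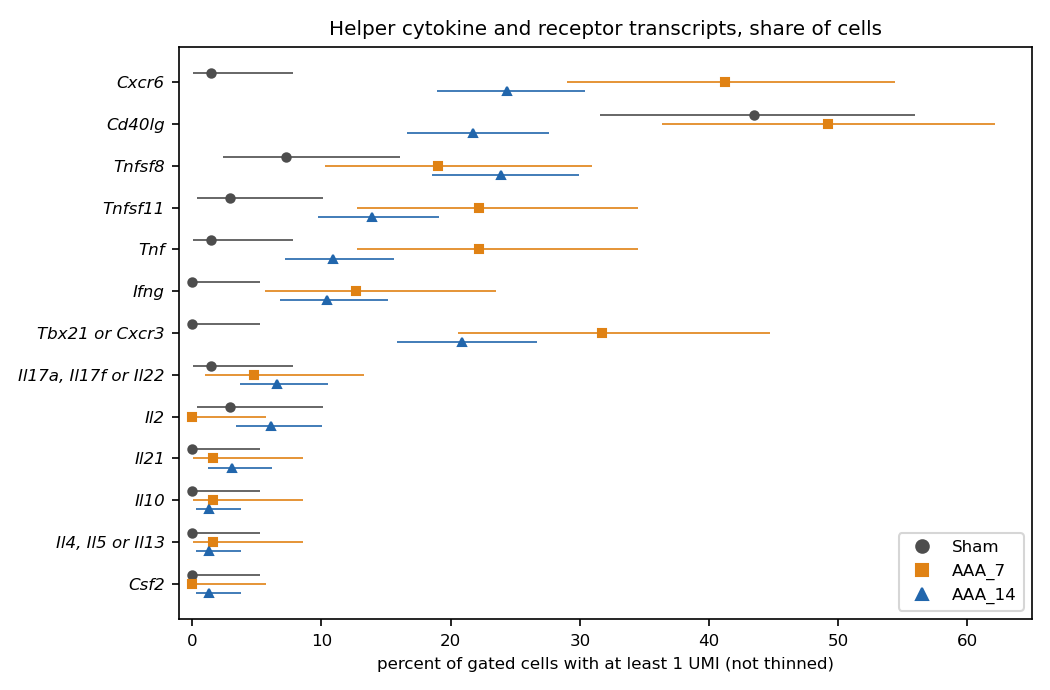
Share of gated cells with at least 1 UMI of each gene or gene set, 1 point per library, with exact Clopper-Pearson 95% intervals; cells were not thinned. Cxcr6 was found in 41.3% and 24.3% of cells of the library titled AAA_7 and AAA_14 and in 1.45% of Sham cells, and Cd40lg was lowest in AAA_14 at 21.7%.

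Interferon-stimulated genes were higher in both other libraries than in Sham, and in AAA_14 nearly the whole list. Of 22 genes, 19 exceeded Sham 2-fold in AAA_14, with a median of 1.82, or 1.33 above the median of all genes. With the 2 genes at 0 in Sham set to their bound, 18 did. With TMM factors 15 of 22 did, against 1843 of 9229 genes. At a depth of 1500 UMIs 14 of 21 did, and without cells with over 10 UMIs of another cell type 20 of 22. Over all genes 1363 and 2188 were higher in these last settings, for which no share is given. In the library titled AAA_7 14 of 18 were higher, with a median of 1.41, and 9 of 18 with TMM factors, against 803 of 5284 genes. Between AAA_14 and the library titled AAA_7 the median was 0.15. Ifit1, an antiviral protein that binds foreign RNA, was at 5.45, 77.3 and 78.4 CPM, Ifit3 at 0, 51.5 and 50.6 and Irf7, the factor that amplifies type I interferon, at 13.6, 41.2 and 66.7. Sham was lowest for all 3. Ifi27l2a was at 771, 1850 and 915, highest in the library titled AAA_7 and under 2-fold apart between AAA_14 and Sham.

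The same genes were higher in other cells: among cells without Cd3 UMIs, 19 of 22 were at least 2-fold higher in AAA_14 than in Sham and 21 of 22 in the library titled AAA_7. At 1500 UMIs Ifit3 was in 0%, 3.39% and 4.78% of gated cells and in 0%, 0.714% and 4.25% of B cells, so that in AAA_14 its share was near that of B cells. Among CD8 T cells, gated on Cd3 and CD8 transcripts, the list median for AAA_14 over Sham was 1.31 (13 of 21 genes higher), and among Foxp3 T cells 1.50 (13 of 18).

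Promoters of this list are shown because their members were higher together. RefSeq promoter windows of 250 bases before to 50 bases after a start (GRCm38.p6) were matched for 16 of the 22 genes. The letters GAAANNGAAA, the core of the interferon-stimulated response element, were searched on both strands, with overlapping matches counted, and 9 of the 16 genes (56.2%) held a match, against 3.99% of all 27025 genes with such a window. Of the 11 MHC class I and antigen processing genes with a window 27.3% held a match, and 0 of 11 effector and memory and 0 of 11 naive genes did. A match is a description of letters and not a site of binding. The 4 genes with at least 2 matches in 1 window are printed 5′ to 3′ on the strand of the gene, with the matches on either strand in capitals.
Ifit3, chr19:34583279-34583578, plus strand: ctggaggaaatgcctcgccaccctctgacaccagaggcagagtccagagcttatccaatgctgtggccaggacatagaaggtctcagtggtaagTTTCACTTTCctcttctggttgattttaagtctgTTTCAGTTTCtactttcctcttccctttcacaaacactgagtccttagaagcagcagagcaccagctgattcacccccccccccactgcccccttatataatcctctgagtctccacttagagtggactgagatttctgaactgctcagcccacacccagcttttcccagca
Ifit1, chr19:34640639-34640938, plus strand: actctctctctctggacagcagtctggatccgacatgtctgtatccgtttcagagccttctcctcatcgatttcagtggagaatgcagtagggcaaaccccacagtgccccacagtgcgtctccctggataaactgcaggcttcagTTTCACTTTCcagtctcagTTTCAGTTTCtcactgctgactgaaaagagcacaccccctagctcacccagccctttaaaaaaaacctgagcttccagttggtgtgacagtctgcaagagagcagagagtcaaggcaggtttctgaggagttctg
Bst2, chr8:71537423-71537722, minus strand: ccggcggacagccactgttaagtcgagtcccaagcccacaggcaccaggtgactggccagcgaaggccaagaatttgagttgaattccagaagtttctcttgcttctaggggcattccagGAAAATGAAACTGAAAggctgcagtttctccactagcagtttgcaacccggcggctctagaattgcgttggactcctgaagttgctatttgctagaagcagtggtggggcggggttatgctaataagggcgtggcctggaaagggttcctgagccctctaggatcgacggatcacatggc
Isg15, chr4:156200769-156201068, minus strand: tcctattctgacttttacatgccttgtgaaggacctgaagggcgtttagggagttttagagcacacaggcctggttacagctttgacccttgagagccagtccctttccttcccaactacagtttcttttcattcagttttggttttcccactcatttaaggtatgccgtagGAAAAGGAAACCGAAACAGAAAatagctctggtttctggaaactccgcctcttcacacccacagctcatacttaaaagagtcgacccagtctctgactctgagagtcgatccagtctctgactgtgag
Bst2, which encodes the virus-tethering protein tetherin, was at 49.1, 119 and 132 CPM, and Isg15, a ubiquitin-like protein, at 24.5, 206 and 56.8. Ifit3, Ifit1 and Bst2 were at similar levels in AAA_14 and the library titled AAA_7, whereas Isg15 was lower in AAA_14 (-1.87, -2.41 to -1.29).

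MHC class I and antigen processing genes, which present peptides from inside the cell to CD8 T cells, were higher in both libraries as well. Of 13, 10 exceeded Sham 2-fold in AAA_14 and 8 in the library titled AAA_7, with medians of 1.62 and 1.51. Without cells with over 10 UMIs of another cell type the AAA_14 count was again 10. H2-K1, a class I heavy chain, was at 722, 2375 and 2224 CPM and H2-Q7 at 142, 608 and 572. Sham was low for both and the others nearly level. The peptide transporter gene Tap2 was at 24.5, 108 and 130. B2m, the shared light chain, was less than 2-fold apart, at 1927, 3081 and 2828. Psmb8 and Psmb9, subunits of the immunoproteasome, were under 2-fold apart in every comparison. Among cells without Cd3 UMIs, 10 and 8 of the 13 genes were likewise at least 2-fold above Sham.

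**Figure D3:**
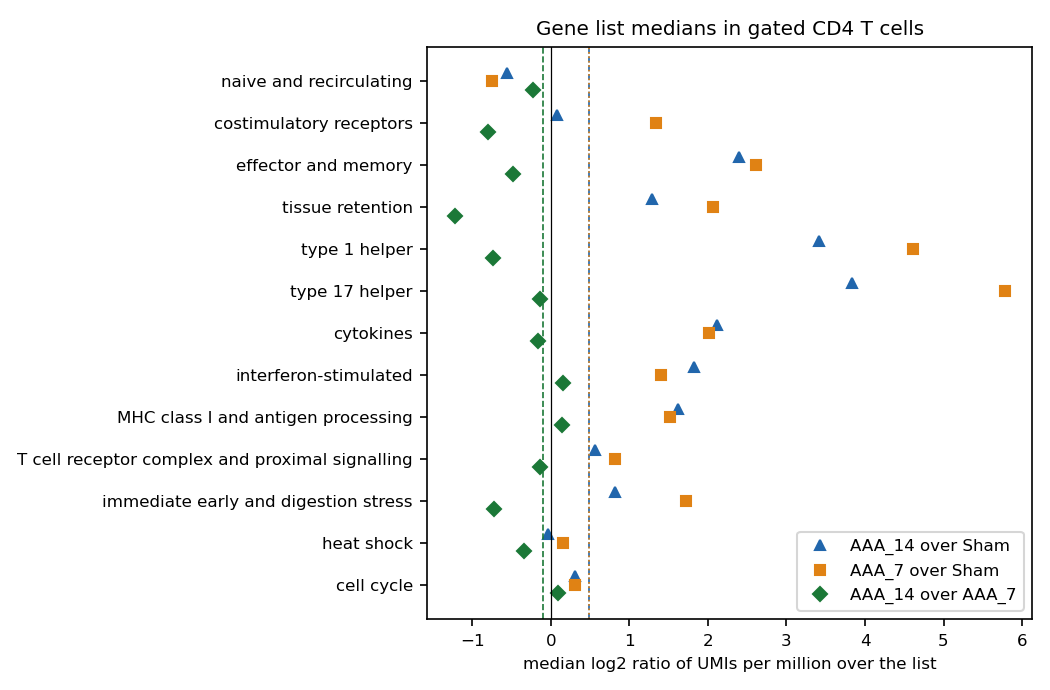
Median log2 ratio of CPM over 13 of the gene lists in the 3 comparisons; vertical dashed lines mark the median of all genes, at 0.49 for both comparisons with Sham (lines overlap) and -0.10 for AAA_14 over AAA_7. Among the lists plotted, type 17 and type 1 have the largest medians for AAA_14 over Sham, and tissue retention has the lowest for AAA_14 over AAA_7. The first order depends on genes at 0 in Sham. With these set to their bound, the type 17 median is 1.80 and the type 1 median 2.61, against 2.40 for effector and memory.

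The genes of the T cell receptor complex and of proximal signalling differed less, with a median of 0.56 for AAA_14 over Sham, 0.08 above that of all genes. Trbc2 was at 1074, 1061 and 1138 CPM. Lck, the kinase that starts receptor signalling, was at 106, 474 and 329, Thy1 at 95.4, 701 and 505 and Cd6, an adhesion receptor, at 60.0, 407 and 257. These 3 were lowest in Sham. Trbv genes, the variable segments of the beta chain, were detected in 9, 4 and 13 cells only, too few to describe the repertoire from these 3′ libraries.

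For several ranked genes Sham was also the extreme library in cells without Cd3 UMIs. Lars2, the mitochondrial leucyl-tRNA synthetase, was at 10.9, 541 and 271 CPM in the gated cells and at 9.97, 336 and 219 in cells without Cd3 UMIs. Tmsb10, which binds actin monomers, was at 8128, 7342 and 4076, and at 3887, 2430 and 1771 in cells without Cd3 UMIs. Ly6a, which encodes Sca-1 and is induced by interferon, was at 43.6, 448 and 434, and at 109, 528 and 627 in cells without Cd3 UMIs. Sham was the lowest for Lars2 and Ly6a and the highest for Tmsb10, in both kinds of cells. Furin, a protease that matures cytokine precursors, was at 2.73, 216 and 132, against 19.9, 83.5 and 50.7 in cells without Cd3 UMIs. For Ppp1r9b, which encodes the scaffold spinophilin, the Sham cells had 0 UMIs and the others were at 108 and 68.6, against 18.6, 89.4 and 69.4 in cells without Cd3 UMIs.

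Further ranked genes lower than in Sham were Hs3st3b1, a heparan sulfate sulfotransferase (92.7, 25.8 and 21 CPM), Itm2a, a membrane protein of thymocytes and T cells (139, 15.5 and 40.8), Ets2 (109, 36.1 and 34.0) and Tmem64 (229, 211 and 82.8). Hist1h1e, a linker histone, was at 128, 20.6 and 46.9, and Ubb, which encodes ubiquitin, at 2161, 958 and 1389. Plk3, a kinase of the stress response, had 0 UMIs in Sham and was at 191 and 36.4 in the library titled AAA_7 and in AAA_14. Genes higher in AAA_14 than in the library titled AAA_7 were, besides Klf2, Tmem126a, Atic, Vamp4, Tsn and Pglyrp1, with levels in AAA_14 between 36.4 and 134. The nearer bounds of their log2 ratios lay between 0.78 and 1.13, far nearer to 0 than those of the genes lower in AAA_14.

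To see whether the libraries differed in the mix of cells, each cell thinned to 1500 UMIs was placed by 2 short gene sets, Ccr7 and S1pr1 for recirculation and Icos, Cxcr6, Pdcd1, Tnfrsf4 and Maf for activation, chosen after the values were seen. Cells with recirculating genes only were 53.6% of Sham (95% interval 41.2 to 65.7), 20.3% of the library titled AAA_7 (10.98 to 32.8) and 30.9% of AAA_14 (24.96 to 37.3). Cells with activation genes only were 7.25% (2.39 to 16.1), 45.8% (32.7 to 59.2) and 33.9% (27.8 to 40.4). Since the sets were chosen with the levels of their genes known, these shares describe the cells and add no support to those levels. Without thinning the shares of cells with activation genes only were 1.45%, 41.3% and 23.5%, and those with both sets 53.6%, 36.5% and 36.1%. Thinning left out 4 cells of the library titled AAA_7, which had fewer UMIs.

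**Figure D4:**
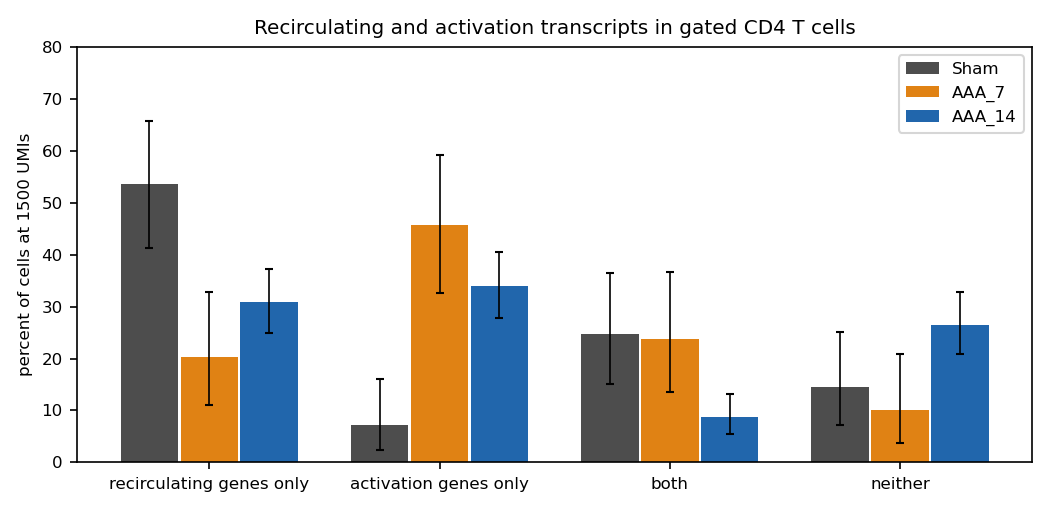
Percent of gated cells, thinned to 1500 UMIs, with transcripts of the recirculating pair only, the activation set only, both or neither; bars start at 0 and error bars are exact Clopper-Pearson 95% intervals. Activation genes alone were found in 7.25% of Sham cells, 45.8% of those of AAA_7 and 33.9% of AAA_14 cells.

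Within AAA_14 the states, formed on all UMIs, differed in genes that did not define them; since the states were drawn from the same cells, these values are descriptions. Id2 was at 1003 CPM in the 54 cells with activation genes only and at 85.3 in the 84 with recirculating genes only. S100a4 was at 1884 and 291, Rora at 321 and 8.32, Il18r1 at 292 and 37.4 and Ifng at 151 and 2.08. Lef1 was at 84.9 and 609, Dapl1 at 15.9 and 171 and Klf2 at 308 and 1011 in the other direction. The first 5 genes were higher in the cells with activation genes and the last 3 in the others.

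Interferon-stimulated and MHC class I genes differed between AAA_14 and Sham also among cells with recirculating genes only. In these 84 and 29 cells, 16 of 21 interferon-stimulated genes exceeded Sham 2-fold in AAA_14, with a median of 1.65, and 10 of 13 MHC class I genes, with a median of 1.24, where the median of 5556 genes was 0.23 and 22.9% were 2-fold higher. Bst2 was at 54.9 CPM in Sham and 179 in AAA_14, H2-K1 at 745 and 2142 and Irf7 at 15.7 and 87.3. All 3 were higher in AAA_14. Effector and memory genes had a median of 1.72 there, with 7 of 13 at least 2-fold higher, and naive genes one of 0.061. Neutrophil markers also differed in these cells, with a median of 2.89 and 5 of 6 genes at least 2-fold higher; S100a8 was at 54.9 and 551 and S100a9 at 70.5 and 668. Their part in the other values was not tested. The library titled AAA_7 had 10 such cells, too few for most of the interferon list against Sham.

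**Figure D5:**
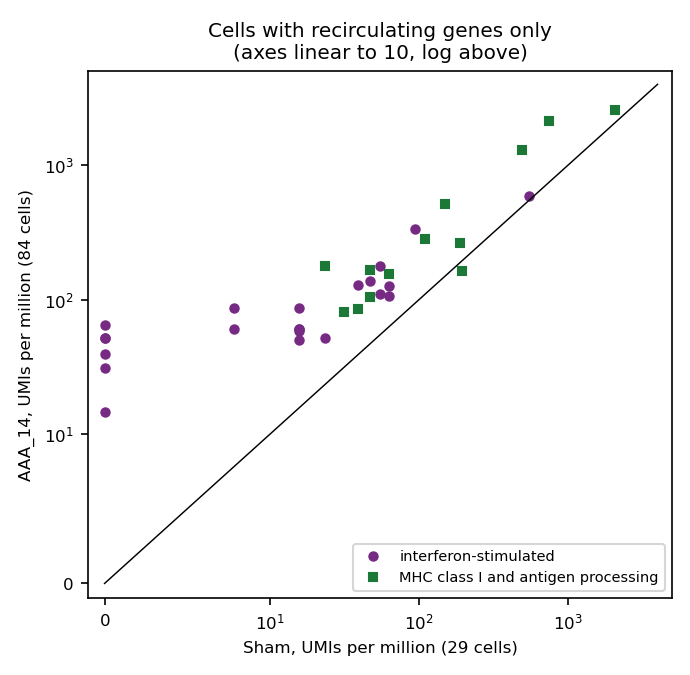
CPM in cells with recirculating genes only, AAA_14 (84 cells) against Sham (29 cells), 1 point per gene, on axes that are linear to 10 and logarithmic above; the line marks equal levels. Of 22 interferon-stimulated genes 22 lie above the line, 6 of them at 0 in Sham, and of 13 MHC class I genes 12 do. Genes at 0 in Sham could not lie below the line. The share of all genes above it was not counted, and the median log2 ratio of 5556 genes was 0.23.

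Among cells with activation genes only, AAA_14 (54 cells) and the library titled AAA_7 (26 cells) could be compared, while Sham had 1. The effector and memory median was 0.028, near the median of all genes at -0.025, and those of the type 1 and naive lists were 0.35 and -0.21. Of 19 immediate early genes, 10 were at least 2-fold lower in AAA_14, with a median of -1.27, against 12.2% of 5700 genes. Of 21 interferon-stimulated genes, 5 were at least 2-fold lower, with a median of -0.36, and Ifit3 was at 116 CPM in the library titled AAA_7 and 53.1 in AAA_14. Myeloid RNA also differed in these cells. S100a8 was at 1824 CPM in the library titled AAA_7 and 114 in AAA_14, and S100a9 at 1681 and 138. Lyz2 went the other way, at 64.7 and 2069. The part of this RNA in the other values was not tested.

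For comparison, the other T cells of the same libraries were summed in the same way, in 143, 146 and 217 CD8 T cells and 11, 15 and 35 Foxp3 T cells. The effector and memory median for AAA_14 over Sham was 0.59 in CD8 T cells and 0.82 in Foxp3 T cells, against 2.40 in the CD4 cells described here, with medians of all genes of 0.37, 0.36 and 0.49. For the type 1 list the medians were 0.27, 1.61 and 3.41, over 11, 7 and 11 genes. In the CD4 cells 4 of the genes were at 0 in Sham, and with these at their bound the median was 2.61. The MHC class I medians were nearer to each other, at 1.32, 1.59 and 1.62. For the library titled AAA_7 over Sham, the effector and memory median was 1.30 in CD8 T cells, with 12 of 15 genes at least 2-fold higher, and 0.83 in Foxp3 T cells, against 2.61 in the CD4 cells. The type 1 medians there were 1.54, 1.22 and 4.62, over 11, 5 and 10 genes. With the 3 CD4 genes at 0 in Sham at their bound, the last was 3.11. No bounds were set in the other T cells, and the genes measured differed, so the type 1 medians are not like for like. The Foxp3 T cells are few, and the differences between cell types were not tested.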

How the data were processed

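Droplet single-cell RNA libraries of CD45-enriched aortic cells were made with the 3′ v2 kit, per the labels' protocols. The authors deposited a matrix of UMI counts per gene and barcode for each of 3 libraries; per the file headers it was written by Cell Ranger 6.1.2, and Cell Ranger, Seurat and mm10 are named, with no roles, per the submitters' processing notes. The matrices hold 32285 genes and 17389 barcodes. The members and the gene lists were chosen with earlier results of these data known.

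From these deposited counts, cells were gated as described, counts summed per library and scaled to 1000000 UMIs (CPM). Log2 ratios had 0.5 counts added, used genes with 10 or more UMIs over the compared pair of libraries, and carry exact conditional binomial 95% intervals; shares carry Clopper-Pearson and levels exact Poisson intervals, all of counting error only. Read duplicates were resolved by UMIs before deposit. With 1 library per group no test was possible, and a ratio of 2-fold is a size. A count of 3 UMIs was the floor for bounds. For shares at equal depth, cells were thinned to 1500 UMIs; B cells served as the type that should lack a gene (median UMIs 2443.5, 2069 and 5214 against 4350, 2850 and 5869.5 in the gated cells).

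Ranked genes had at least 30 UMIs in the higher library, in at least 5% of its gated cells, with at most 20% in 1 cell, and at least 0.1 of the level of cells without Cd3 UMIs. Mitochondrial, ribosomal protein, haemoglobin, sex-linked, immunoglobulin, receptor variable and unnamed genes were left out. They were ranked by the interval bound nearest to 0, 10 each way for AAA_14 over Sham and 6 otherwise. Other genes named belong to the 40 lists. Some genes of the ranking and of the lists are not reported here. Coordinates are from GENCODE vM21 (GRCm38). Scrublet's automatic threshold called 1, 0 and 3 cells doublets and had not worked; no cell was removed for it. Tools were numpy 2.4.6, scipy 1.17.1, pandas 2.3.3, scanpy 1.11.5 and, for TMM factors, edgeR 4.0.16 in R 4.3.3. Scripts were tested on simulated data.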

Additional observations from a re-analysis of the deposited data

How the results depend on the processing

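No paired analysis was possible because each group is 1 library, and for the same reason no replicate was left out. A mitochondrial limit of 5% was not run for gene comparisons, since it left 0 Sham cells and 15 in AAA_14. Of 721 values for 62 list medians 49 moved and 1 reversed, and of 4084 values for 352 single genes 216 moved and 9 reversed; the cause was not tested. The removal of cells with over 10 UMIs of another cell type was chosen after seeing the data.

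The share of kept cells, Sham, was 0% with a mitochondrial limit of 5%, 3.54% with 20% and 1.40% when the gate was set on thinned cells. The share of kept cells, AAA_7, was 1.49% without C1q transcripts and 1.39% on thinned cells. The share of kept cells, AAA_14, was 0.948% with the limit of 5%, 3.22% without C1q transcripts and 2.40% on thinned cells.

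The genes at least 2-fold higher, AAA_14 over Sham, numbered 440 with 5 counts added, 1634 with at least 30 UMIs, 1363 in thinned cells and 1430 in cells low in myeloid or B cell UMIs. The genes at least 2-fold lower, AAA_14 over Sham, numbered 770 with TMM factors, 830 with 5 counts added, 105 with at least 30 UMIs, 1079 with at least 1 UMI and 180 without the top cell of each gene. The genes at least 2-fold higher, AAA_7 over Sham, numbered 803 with TMM factors, 566 with at least 30 UMIs, 3838 with at least 1 and 718 in thinned cells. The genes at least 2-fold lower, AAA_7 over Sham, numbered 760, 97, 1024 and 159 in the same settings, and 63 with 5 counts added. The genes at least 2-fold higher, AAA_14 over AAA_7, numbered 42 with 5 counts added, 569 with at least 30 UMIs, 499 in thinned cells, 2007 without the top cell, 542 in cells low in myeloid or B cell UMIs and 823 without cells with over 10 UMIs of another type. The genes at least 2-fold lower, AAA_14 over AAA_7, numbered 3810, 509, 691 and 535 in the first 4 of these, and 3427 with at least 1 UMI.

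For AAA_14 over Sham, 5 counts added gave medians of 0.21 for tissue retention, 1.58 for type 1, 0.89 for type 17 and 0.98 for interferon-stimulated genes, and turned the cytotoxic median to -0.29. Thinning gave 0.014 for tissue retention. Without the top cell the type 1 median was 4.01, and in cells low in myeloid or B cell UMIs type 1 was 2.27 and type 17 was 4.51. For AAA_7 over Sham, cells low in myeloid or B cell UMIs gave 1.34 for tissue retention and 4.01 for type 1, for which 5 counts added gave 2.68 and at least 30 UMIs 2.58. For AAA_14 over AAA_7, cells low in myeloid or B cell UMIs gave -1.26 for effector and memory and -1.37 for type 1, and type 17 was -0.98 with 5 counts added and -0.86 in thinned cells.

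Single genes that reversed were Cd200 (0.31 thinned, 0.42 in cells low in myeloid or B cell UMIs) and Slamf1 (-0.26 thinned) for AAA_14 over Sham, and Slfn1 (-0.12 thinned) and Tox (0.23 thinned) for AAA_7 over Sham. For AAA_14 over AAA_7 they were Cenpf (0.11 without the top cell), Cxcl10 (-0.10 with a mitochondrial limit of 20%) and Mcm3 (-0.52 in cells low in myeloid or B cell UMIs, -0.0070 without cells with over 10 UMIs of another type).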

Other observations

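Gene groups outside the comparisons above are given as values, in CPM of the gated cells and in the order Sham, the library titled AAA_7, AAA_14. Genes of glycolysis differed by member. Pkm, the last kinase of the pathway, was at 76.3, 278 and 287, and Ldha, which makes lactate, at 123, 314 and 302. Of 15 such genes with enough UMIs, 5 were at least 2-fold higher in AAA_14 than in Sham, near the 29.7% of all genes, and 1 lower. In cells without Cd3 UMIs Pkm was at 93.2, 343 and 283. Genes of the cell cycle had a median of 0.30, under that of all genes, with 3 of 20 higher. Mki67, a marker of dividing cells, was at 21.8, 165 and 110, with 27% of the AAA_14 UMIs in 1 cell, whereas Pcna, the replication clamp, was at 248, 232 and 254.

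Survival genes differed by member. Bcl2a1b and Bcl2a1d, antiapoptotic genes induced by NF-κB that are near copies of each other, so that the split of UMIs between them is uncertain, were at 46.3, 361 and 143 and at 24.5, 232 and 97.6. Bcl2 was at 172, 92.7 and 164. Bcl2l11, which encodes the death promoter BIM, was at 155, 134 and 68.6, lowest in AAA_14.

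Checkpoint receptors summed to 234, 407 and 288. Ctla4, which competes with CD28 for its ligands, was at 38.2, 299 and 114, against 330, 1220 and 797 in Foxp3 T cells. In the gated CD4 cells Btla was at 43.6, 36.1 and 56.8 and Tox, a factor of exhausted T cells, at 87.2, 36.1 and 58.1. Pdcd1 had 1, 3 and 25 UMIs, Lag3 2, 0 and 8 and Tigit 0 in all 3 libraries. Cytotoxic genes summed to 87.2, 376 and 217. Gzmb, a granule protease, had 0, 5 and 13 UMIs, with 84.6% of the last in 1 cell, and Gzmm and Klrg1 had none. Nkg7, a granule membrane gene, was at 16.4, 129 and 95.7. The chemokine genes Ccl3 and Ccl4 were at 2.73, 479 and 35.2 and at 5.45, 582 and 49.4. Cells without Cd3 UMIs held Ccl4 at 1272, 3556 and 1297.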
